A study of Mus musculus with 2 samples.

Results

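The 9 genes described here carry the 2 routes by which a cell shows peptides to T cells, and they were found by symbol among the 31053 features of 2 single-cell RNA-seq libraries. H2-K1, H2-D1, B2m, Tap1 and Psmb8 belong to the MHC class I pathway, and H2-Aa, H2-Ab1, H2-Eb1 and Cd74 to the class II pathway. All 9 were detected in both libraries. The cells came from back skin of a control mouse and of an miR-205-inducible mouse at postnatal day 53, with 1 library per group. The inducible mouse carried a pTRE2-miR-205 transgene switched on by doxycycline through Krt14-rtTA, an activator made in Krt14-positive keratinocytes, the epithelial cells of epidermis and follicle. Both mice carried the Krt14-H2BGFP reporter allele and were of matched gender, and the labels give the strain as C57BL/6, while the study's methods state that the transgene was first injected into FVB mice. The methods and the extraction protocol have both mice on doxycycline chow for 4 days from day 49, whereas the treatment label of the control reads untreated. Epidermal, follicle and dermal cells were sorted at 3:5:2.

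In the class I pathway the immunoproteasome, of which Psmb8 is a catalytic subunit, cuts cytosolic proteins into peptides. The transporter TAP, of which Tap1 is a subunit, carries the peptides into the endoplasmic reticulum, where they are loaded on heavy chains such as H2-K1 and H2-D1 that are paired with the light chain B2m. Class II molecules, built from an alpha chain and a beta chain, are made mainly by professional antigen-presenting cells, where the invariant chain Cd74 guides them to endosomes. H2-Aa encodes an alpha chain, and H2-Ab1 and H2-Eb1 encode beta chains. The hair follicle bulge, which houses the stem cells, is known as a site of low class I expression, and Langerhans cells are the class II-positive dendritic cells of the epidermis.

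On GRCm38.p6, 7 of the 9 genes lie on chromosome 17. H2-K1 spans chr17:33996012-34000619, Tap1 chr17:34187556-34197225, Psmb8 chr17:34198195-34201454, H2-Ab1 chr17:34263227-34269418, H2-Aa chr17:34282744-34287823, H2-Eb1 chr17:34305867-34316674 and H2-D1 chr17:35263094-35267497. B2m lies at chr2:122147687-122153082.

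The promoters of the main class I genes and of H2-Aa are shown because the class I genes and H2-Aa had different distributions over the cell classes. Each window runs from 250 bases before to 50 bases after an annotated start, 5′ to 3′ on the gene's strand, as RefSeq gives it for GRCm38.p6. Of the windows listed for H2-K1 the first was used. That window lies inside the H2-K1 span given above, which begins at 34000619 on the minus strand. The other windows shown reach across the 5′ end of their gene's span. Capitals mark exact matches, on either strand, to CCAAT (the CCAAT box), TGACG (part of a cyclic AMP response element), GGGATTCCC (a kappa B-type site) or the core of an interferon-stimulated response element, with overlapping matches merged.
H2-K1, chr17:34000298-34000597, minus strand: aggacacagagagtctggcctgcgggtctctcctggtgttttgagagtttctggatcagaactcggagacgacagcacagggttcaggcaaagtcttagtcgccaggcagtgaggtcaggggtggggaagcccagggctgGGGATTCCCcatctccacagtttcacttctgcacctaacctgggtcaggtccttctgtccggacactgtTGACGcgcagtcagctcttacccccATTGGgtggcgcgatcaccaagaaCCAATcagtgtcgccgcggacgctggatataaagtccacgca
H2-D1, chr17:35262844-35263143, plus strand: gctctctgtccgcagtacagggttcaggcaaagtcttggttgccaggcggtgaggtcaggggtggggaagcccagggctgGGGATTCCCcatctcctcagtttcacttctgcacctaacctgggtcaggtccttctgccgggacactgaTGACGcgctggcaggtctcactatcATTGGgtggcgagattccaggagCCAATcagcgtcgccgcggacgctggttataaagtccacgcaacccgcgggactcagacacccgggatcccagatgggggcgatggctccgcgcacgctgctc
B2m, chr2:122147437-122147736, plus strand: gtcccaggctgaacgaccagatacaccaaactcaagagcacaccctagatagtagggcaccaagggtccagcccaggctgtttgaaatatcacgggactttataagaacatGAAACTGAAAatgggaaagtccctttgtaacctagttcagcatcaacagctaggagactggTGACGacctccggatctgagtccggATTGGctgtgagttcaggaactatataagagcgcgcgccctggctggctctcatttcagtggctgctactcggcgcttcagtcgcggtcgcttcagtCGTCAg
Tap1, chr17:34187306-34187605, plus strand: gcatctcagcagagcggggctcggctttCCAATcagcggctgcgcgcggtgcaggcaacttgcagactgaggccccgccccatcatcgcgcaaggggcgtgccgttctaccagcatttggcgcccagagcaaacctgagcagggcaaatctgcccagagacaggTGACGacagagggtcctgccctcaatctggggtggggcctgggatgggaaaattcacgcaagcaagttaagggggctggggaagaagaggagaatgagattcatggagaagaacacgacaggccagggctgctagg
H2-Aa, chr17:34287774-34288073, minus strand: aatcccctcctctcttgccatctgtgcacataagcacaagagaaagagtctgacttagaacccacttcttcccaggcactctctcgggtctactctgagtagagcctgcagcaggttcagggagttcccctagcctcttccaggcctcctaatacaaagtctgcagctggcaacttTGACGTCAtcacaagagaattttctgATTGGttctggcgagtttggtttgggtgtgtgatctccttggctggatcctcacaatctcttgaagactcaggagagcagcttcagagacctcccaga

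Of the 7 members with a promoter in the RefSeq table, 6 held a CCAAT box, against 37.9% of 27025 gene promoters of the same length, and 5 held TGACG, against 21.0%. The kappa B-type site was found in 2 of the 7, H2-K1 and H2-D1, and in 0.37% of all promoters. The interferon-type core was found in 1 of the 7, B2m, and in 3.49% of all promoters. Variants of that core were not searched, so a window without a match may still hold an interferon response element. In H2-Aa TGACG was matched on both strands, the matches overlapping in the palindrome TGACGTCA. These matches describe the windows and are not binding sites.

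Mature miR-205-5p, from chr1:193507503-193507524 on the minus strand of GRCm38.p6, is shown with its seed (bases 2 to 8) in capitals because it is the RNA that the transgene makes. A 7-base complement of the seed, ATGAAGG, was present in the longest annotated 3′ untranslated region of 1 of the 9 genes, H2-D1, against 10.4% of 19915 genes on build NCBIM37. The H2-D1 site starts 612 bases into an untranslated region of 629 bases, and the site is in capitals in the second line.
mmu-miR-205-5p: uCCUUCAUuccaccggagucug
H2-D1 seed match: taaatggcagATGAAGGaacttccaga

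Following the study's methods, barcodes with over 200 and under 5000 genes and a mitochondrial share below 10% of UMIs were kept, where a UMI is a unique molecular identifier that counts 1 captured RNA molecule. The libraries held 4264 and 4545 barcodes, of which 3628 induced and 3936 control cells were kept, at a median depth of 11752.5 and 12198.5 UMIs. The 2 libraries shared 11 barcodes. Cells were put into classes by UMIs of marker genes, and no member of the 9 was a marker. Bulge-like cells (224 control, 299 induced) were keratinocytes with Cd34 and Krt24, basal epidermal cells (829, 524) were keratinocytes low in follicle markers, and suprabasal cells (148, 156) were high in Krt1 and Krt10. All other keratinocytes (2068, 1789) formed 1 class. Dermal fibroblasts (121, 162) were set by collagens and related genes, dermal papilla-like cells (106, 165) by Corin, Sox2, Sox18 and similar genes, antigen-presenting cells (78, 76) by Cd207, Lyz2, C1qa and similar genes, and T cells (39, 82) by T-cell receptor and Cd3 genes. A further 321 control and 372 induced cells passed no rule, and 2 and 3 immune cells were of neither kind.

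The bulge-like and basal classes were compared on genes that did not set them, with mixed outcome. Levels are UMIs per 1000000 UMIs of the class (CPM). Krt15, a keratin enriched in the bulge, stood at 9217 CPM in control and 11347.7 CPM in induced bulge-like cells, against 4462 and 4879 CPM in basal epidermis. The 6 genes listed for basal epidermis did not mark that class against the bulge-like cells, with a sum of 3773 CPM in control basal and 6047 CPM in control bulge-like cells, and 3665 and 3784 CPM in the induced library. All 6 were higher in the bulge-like cells of the control, among them Thbs1 at 2911 against 1878 CPM and Col17a1 at 1458 against 805.7 CPM. Basal epidermis is therefore named by its rule, as keratinocytes low in follicle markers. The suprabasal class also held follicle infundibulum genes, with Cst6 at 22656.2 and 16051.5 CPM, so it is not epidermis alone. No separate list was available for the papilla-like class, whose cells were shallow, with median depths of 4677 and 5739 UMIs. Of the bulge-like cells 63 control and 43 induced cells, of the papilla-like cells 24 and 57, and of the basal epidermal cells 315 and 143, lay within a factor of 2 of the cuts that set the class.

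Each condition is a single library, so the difference between mice has no replicate check and no p-value is given. CPM values carry exact Poisson intervals, ratios carry exact binomial intervals and shares of cells exact Clopper-Pearson intervals, all at 95%, and all cover counting error only. A gene is called past 2-fold here when its log2 ratio was beyond 1 with at least 20 UMIs over both libraries.

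The class I genes were low in bulge-like and dermal papilla-like cells and high in every other class, in both libraries. H2-K1 stood at 578.5 CPM (548.1 to 610.2) in control bulge-like cells and 515.2 CPM (490.6 to 540.7) in induced ones. In basal epidermis H2-K1 stood at 2054 CPM (2029 to 2079) in the control and 2119 CPM (2088 to 2150) in the induced library. The bulge-like level was thus 3.55-fold below basal epidermis in the control and 4.11-fold below it in the induced library, and the intervals did not overlap. In papilla-like cells H2-K1 stood at 336.3 CPM (287.6 to 390.8) and 654.8 CPM (604.8 to 707.9), the lowest level of the 8 classes in the control and the next to lowest in the induced library.

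B2m, which every classical class I molecule needs, followed the same order at the low end. Its level was 521.7 CPM (492.8 to 551.8) in control and 394.3 CPM (372.8 to 416.7) in induced bulge-like cells, against 1828 and 1824 CPM in basal epidermis. In papilla-like cells B2m stood at 326.4 CPM (278.5 to 380.2) and 432.1 CPM (391.6 to 475.6), and its intervals overlapped those of bulge-like cells in the induced library. H2-D1 stood at 562.3 and 507.4 CPM in bulge-like cells and at 563.8 and 766.7 CPM in papilla-like cells, against 1640 and 1816 CPM in basal epidermis. In bulge-like cells the supply genes were lower still relative to epidermis. Tap1 stood at 11.97 CPM (7.96 to 17.3) and 21.6 CPM (16.8 to 27.3) there, against 68.9 and 101.8 CPM in basal cells. Psmb8 stood at 22.2 CPM (16.6 to 29.2) and 12.8 CPM (9.21 to 17.4) in bulge-like cells against 139.3 and 208.3 CPM, a 6.21-fold gap in the control and a 16.03-fold gap in the induced library. This did not hold throughout in papilla-like cells. There the control and induced gaps were 4.1- and 5.04-fold for Tap1, 2.56- and 3.50-fold for Psmb8 and 6.09- and 3.23-fold for H2-K1.

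**Figure D1:**
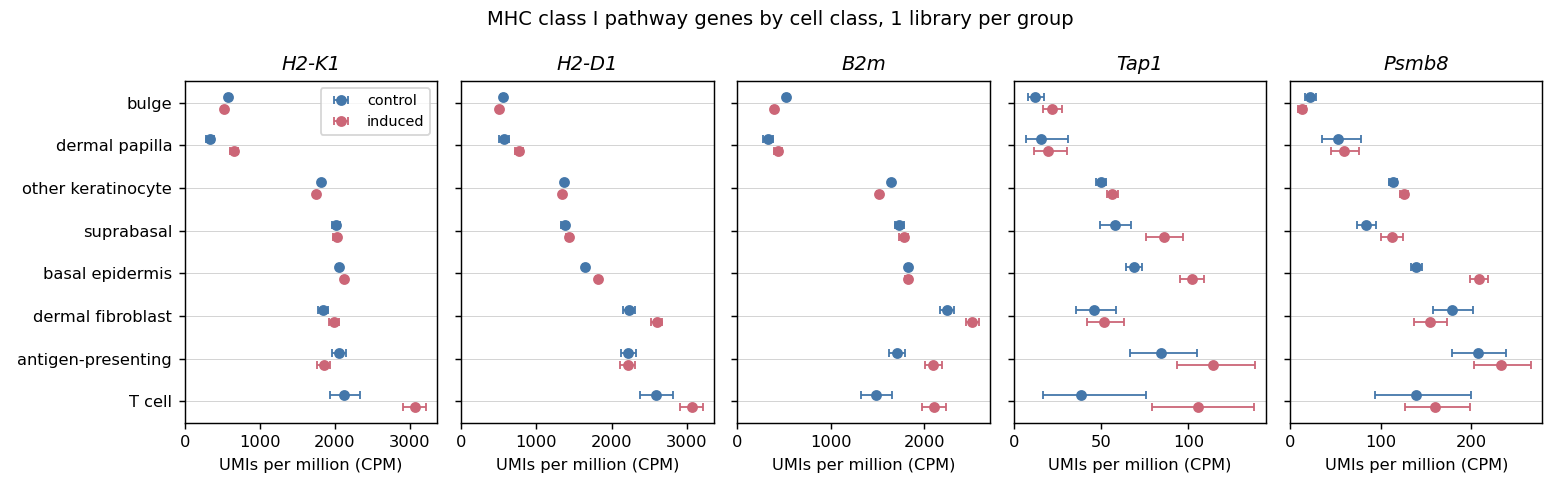
Level of 5 class I pathway genes, in CPM on linear axes with a scale for each gene, in 8 cell classes of the control (blue) and induced (red) library; bars are 95% Poisson intervals for counting error. All 5 genes sit lowest in the bulge-like and papilla-like rows of both libraries, and the heavy chains and B2m lie between 1339 and 3064 CPM in the other rows.

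Summed over the 5 genes, the class I level was 1697 CPM (1644 to 1750) in control and 1451 CPM (1410 to 1494) in induced bulge-like cells, 3.38- and 4.18-fold below basal epidermis at 5730 and 6069 CPM. In papilla-like cells the sum was 1296 and 1932 CPM, 4.42- and 3.14-fold below. The other classes ran from 4780 CPM in induced other keratinocytes to 8490 CPM in induced T cells. All 5 class I genes were more than 2-fold lower than in basal epidermis in bulge-like cells of both libraries, where 13.1% of 10497 genes in the control and 11.6% of 10341 genes in the induced library were that much lower. The same held for all 5 in papilla-like cells, against 22% of genes in the control and 21.1% in the induced library. None of the 5 was past 2-fold from basal epidermis in the suprabasal, other keratinocyte, fibroblast, antigen-presenting or T-cell class of either library. The gap had the same direction in both libraries under each alternative run, although its size moved, as given at the end.

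The order held at equal depth. After thinning each cell to 5000 UMIs and leaving out shallower ones, an H2-K1 UMI was present in 77.9% (71.8 to 83.2) of 217 control and 70.0% (64.4 to 75.2) of 293 induced bulge-like cells, and in 99.1% (98.2 to 99.7) of 816 and 99.6% (98.59 to 99.95) of 510 basal cells. Thinning left out 63 control and 47 induced papilla-like cells, so the 74.4% and 83.0% with an H2-K1 UMI there describe the deeper 43 and 118. Unthinned, the shares in bulge-like cells were 91.5% and 84.9%. Since free RNA can put UMIs of abundant genes into any droplet, a share in a class of low level need not mean expression by each of its cells.

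Cell by cell, the median bulge-like cell held 5 summed class I UMIs of 5000 in the control and 4 in the induced library, against 28 and 29 in basal epidermis. The 95th percentile of bulge-like cells, at 22 and 21 UMIs, was below the basal median in both libraries. In papilla-like cells the median was 5 and 8 UMIs. Other keratinocytes were broad, with a lower quartile of 16 UMIs in the control and 8 in the induced library and similar medians of 24 and 23.

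**Figure D2:**
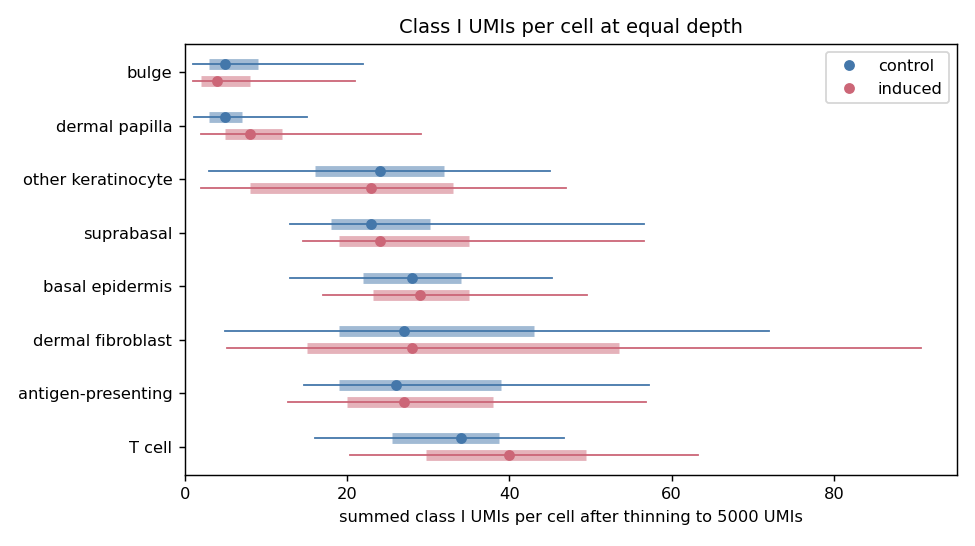
Summed UMIs of the 5 class I pathway genes per cell after thinning every cell to 5000 UMIs (linear axis), by class for control (blue) and induced (red) cells; points are medians, thick bars the 25th to 75th and thin lines the 5th to 95th percentiles over cells. The medians of bulge-like cells, 5 and 4 UMIs, and of papilla-like cells, 5 and 8, stand below those of the other classes, which lie between 23 and 40.

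The bulge-like, basal and other keratinocytes were also pooled and divided by follicle marker genes, a division chosen after the values were seen, and the level was lower in cells with Cd34 or Lgr5 UMIs. Cells with no Cd34 UMI had a summed class I level of 5443 and 5572 CPM in the control and induced library, cells with 1 to 4 UMIs 2998 and 3075 CPM, and cells with 5 to 9 UMIs 1791 and 1983 CPM. With 10 or more Cd34 UMIs the level was 2371 CPM (2269 to 2476) in 74 control and 1316 CPM (1264 to 1370) in 173 induced cells, the Cd34 group in which the libraries were furthest apart. Outside the bulge-like class, cells with at least 4 Cd34 UMIs and no Krt24 UMI stood at 2448 CPM (2368 to 2530) and 2158 CPM (2102 to 2214). Cells with at least 2 UMIs of Lgr5, a marker of the lower bulge and hair germ, and none of Cd34 and Krt24, stood at 1795 CPM (1716 to 1877) and 1418 CPM (1350 to 1488). Cells with at least 10 UMIs of Krt79, a gene of the upper follicle, stood at 5710 and 6108 CPM, at the epidermal level. Cells with at least 20 UMIs of Scd1, a lipid synthesis gene high in sebaceous glands, lay between, at 3386 and 3820 CPM, and cells with at least 4 UMIs of Krt75, a companion layer keratin, at 3669 and 2254 CPM.

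**Figure D3:**
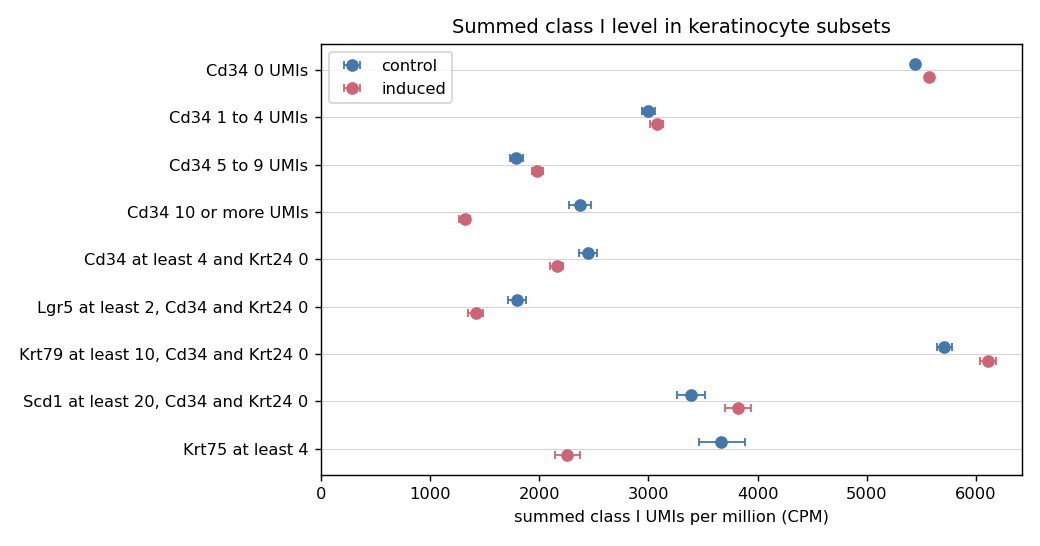
Summed class I level in CPM (linear axis from 0) of keratinocyte subsets divided by UMIs of follicle marker genes, for control (blue) and induced (red) cells with 95% Poisson intervals. The Cd34 groups of 5 to 9 UMIs (1791 and 1983 CPM) and the Lgr5 group (1795 and 1418 CPM) sit near the left, and the Krt79 group (5710 and 6108 CPM) near the cells with no Cd34 UMI.

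Across 18 class-by-library points, the Pearson r of log2(CPM + 1) was 0.965 between H2-K1 and B2m, 0.903 between H2-K1 and H2-D1, 0.892 between H2-K1 and Tap1 and 0.812 between H2-K1 and Psmb8, and 0.375 between H2-K1 and Cd74. Among 10802 genes, Edf1 (r = 0.928), Pet100 (0.918), the immunoproteasome subunit Psmb9 (0.893), Lrp10 (0.890) and Tnfaip3 (0.890) were most like H2-K1. Ndufa3 (0.904), Pet100 (0.903), Edf1 (0.885), the proteasome activator subunit Psme2 (0.880) and Scand1 (0.875) were most like Tap1. These values are descriptions, since the points share 2 libraries and the classes differ in depth.

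In the comparison of the induced with the control library, the class I heavy chains and B2m differed by at most 0.15 on the log2 scale in basal, suprabasal and other keratinocytes, and Tap1 was higher in the induced library in all 8 classes. The interval of the Tap1 ratio was above 0 in 6 of the 8, and the fibroblast and papilla-like intervals included 0. The papilla-like ratio, from 8 and 19 UMIs, turned to -0.14 under 5% mitochondrial UMIs and to -0.99 with the class cuts halved. Of the 9 genes, 1 was past 2-fold in any of the 8 classes at the reported settings, and that was Tap1 in T cells. Other ratios went beyond 1 under some alternative settings. Among them, H2-K1 ran from 0.42 to 1.12 in papilla-like cells and Cd74 from 0.044 to 1.72 in suprabasal cells. In bulge-like cells Tap1 ran from 0.58 to 1.12 and Psmb8 from -1.11 to -0.40. In the 2 control and 3 induced immune cells of neither kind B2m was lower at -1.26 (-2.17 to -0.50), from 78 and 16 UMIs. The share of all genes past 2-fold was 5.68% in bulge-like cells, 4% in basal epidermis, 4.68% in suprabasal cells, 5.12% in other keratinocytes, 6.71% in fibroblasts, 7.89% in papilla-like cells, 9.68% in antigen-presenting cells and 17.3% in T cells. The count of 1 of the 6 genes with 20 UMIs in T cells is thus close to that background.

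In basal epidermis the supply genes were higher in the induced library while the heavy chains and B2m stayed near the control. Tap1 stood at 68.9 CPM (64.4 to 73.6) in the control and 101.8 CPM (95.1 to 108.8) in the induced library, a log2 ratio of 0.56 (0.43 to 0.70). Psmb8 stood at 139.3 CPM (132.9 to 146) and 208.3 CPM (198.7 to 218.3), a log2 ratio of 0.58 (0.48 to 0.68). H2-D1 had a log2 ratio of 0.15 (0.12 to 0.18), H2-K1 of 0.05 (0.02 to 0.07) and B2m of -0.0028 (-0.03 to 0.03). The median over the 10782 genes measured in that class was 0.02. In suprabasal cells the order was the same, with Tap1 at 0.57 (0.29 to 0.86), Psmb8 at 0.43 (0.19 to 0.67) and the other class I genes between 0.00 and 0.06.

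In bulge-like cells 4 of the 5 class I genes were lower in the induced library, with intervals below 0. The share of all genes with such intervals was not computed, so the count is no result about the class I genes. B2m had a log2 ratio of -0.40 (-0.52 to -0.29), and H2-K1 and H2-D1 stood at -0.17 (-0.27 to -0.06) and -0.15 (-0.25 to -0.04). Psmb8 rested on 52 control and 41 induced UMIs, a log2 ratio of -0.79 (-1.42 to -0.17). Tap1 went the other way, with 28 and 69 UMIs and a log2 ratio of 0.84 (0.20 to 1.54). The summed class I ratio was -0.23 (-0.29 to -0.16), and mouse and treatment cannot be told apart. Other genes of the class differed too, with Krt24 at 493.9 and 1002 CPM, Cd34 at 680.7 and 871.7 CPM and Thbs1 at 2911 and 892.3 CPM. Their part in the ratios was not tested. Of the groups above set by Cd34 UMIs alone, only that with 10 or more was lower in the induced library. The groups set by Lgr5, by Krt75 and by Cd34 without Krt24 were lower too.

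In papilla-like cells H2-K1 came to 170 control and 632 induced UMIs, a log2 ratio of 0.96 (0.71 to 1.21), the ratio nearest to 2-fold outside T cells. H2-D1 stood at 0.44 (0.24 to 0.65) and B2m at 0.40 (0.14 to 0.67) there. With the class cuts halved, the H2-K1 ratio was 0.42 and the B2m ratio turned to -0.085. The highest alternative ratio of H2-K1 was 1.12. Other markers of the class differed too, with the papilla markers at 4601 and 2804 CPM, 4 endothelial genes at 1.98 and 25.9 CPM (1 and 25 UMIs), Sbsn, an epidermal gene, at 27.7 and 196.9 CPM and the follicle gene Sox9 at 17.8 and 80.8 CPM. Their part in the papilla-like ratios was not tested. In fibroblasts H2-K1, H2-D1 and B2m were between 0.11 and 0.22, and in other keratinocytes between -0.11 and -0.03. Under 5% mitochondrial UMIs H2-K1 and H2-D1 turned to 0.084 and 0.062 in other keratinocytes, and the class I sum to 0.055. In sums over a class, less RNA per cell and a different mixture of cells cannot be told apart.

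Of the 8 classes, T cells had the highest H2-K1 and H2-D1 levels of the induced library, at 3062 CPM (2913 to 3217) and 3064 CPM (2914 to 3219), against 2120 CPM (1927 to 2327) and 2585 CPM (2371 to 2812) in the control. B2m stood at 1482 CPM (1321 to 1657) and 2099 CPM (1975 to 2228). Tap1 came to 8 control and 54 induced UMIs, or 38.4 and 105.3 CPM, a log2 ratio of 1.38 (0.38 to 2.74). The makeup of the class differed, since a Trdc UMI, which marks gamma-delta T cells, was found in 76.9% of control and 37.8% of induced T cells, and Trac, of alpha-beta T cells, in 28.2% and 61.0%. Divided after the values were seen into cells with Trdc and no Trac (27 control, 28 induced) and all others (12, 54), the summed class I level was 5556 and 6744 CPM in the former and 8123 and 9286 CPM in the latter. Tap1 came to 5 and 3 UMIs in the former and to 3 and 51 UMIs in the latter, so 51 of the 54 induced UMIs came from T cells outside the Trdc type.

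**Figure D4:**
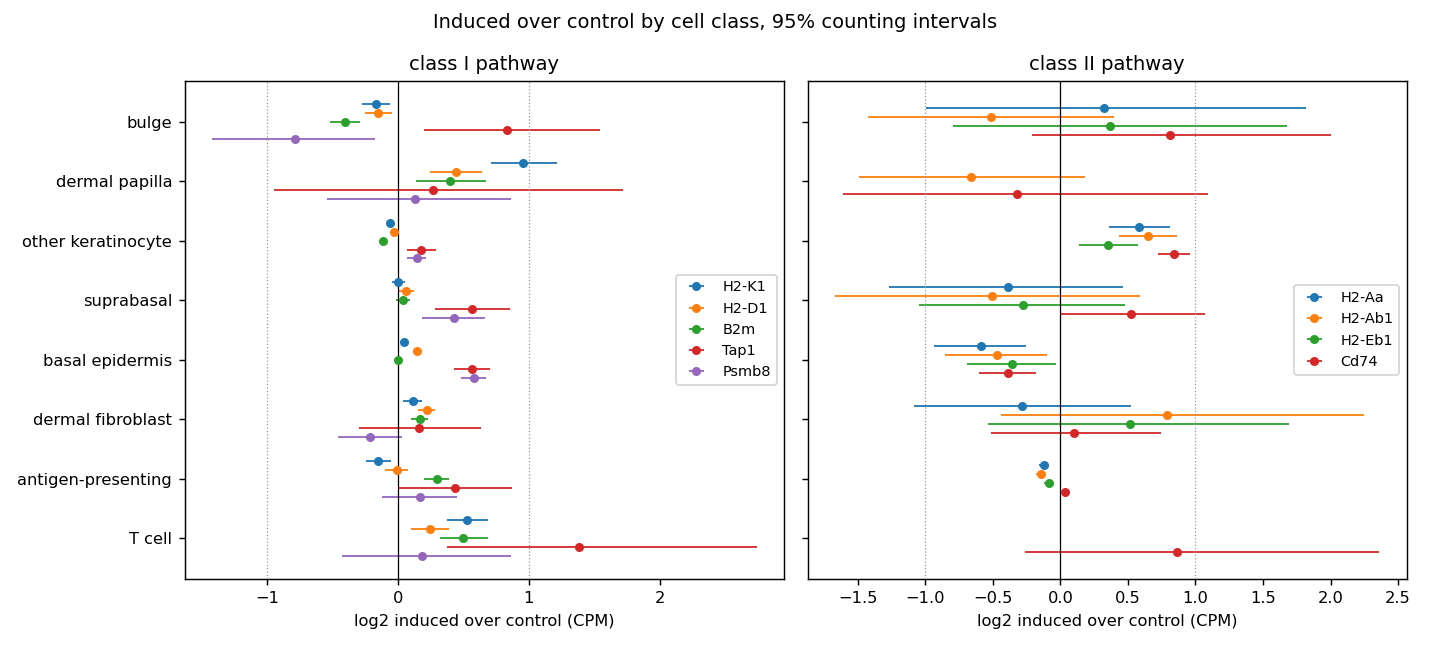
Log2 ratio of CPM, induced over control, for the class I (left) and class II (right) pathway genes with at least 20 UMIs in each cell class; points are ratios, bars 95% counting intervals with no animal replicate, and dotted lines mark 2-fold. Tap1 lies right of 0 in every row of the left panel, at 0.16 to 1.38, and Psmb8 lies left of 0 in bulge-like cells and fibroblasts.

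The class II genes had a narrower distribution than the class I genes, with 1 class holding nearly all of the level. In antigen-presenting cells H2-Aa stood at 18491.5 CPM in the control and 16965.9 CPM in the induced library, H2-Ab1 at 19171.4 and 17322.0, H2-Eb1 at 18146.8 and 17080.0 and Cd74 at 46585.2 and 47641.9 CPM. Every one of the 78 control and 76 induced cells held a UMI of each of the 4 genes. Together the 4 genes made up 102394.8 CPM of the control and 99009.8 CPM of the induced antigen-presenting class. The summed log2 ratio was -0.05 (-0.06 to -0.04). H2-Aa, H2-Ab1 and H2-Eb1 stood at -0.12, -0.15 and -0.09 and Cd74 at 0.03, and with no cell filter the sum turned to 0.082, H2-Aa to 0.0063 and H2-Eb1 to 0.040. Cd74 turned negative in 4 alternatives, to between -0.023 and -0.0039.

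The class II level was similar in Langerhans-type and other antigen-presenting cells of the control. Split by Cd207, the gene of the Langerhans cell lectin langerin, 56 control and 51 induced cells with at least 5 UMIs had a summed class II level of 102927.8 and 104043.9 CPM, and the 22 and 25 other cells 101517.5 and 90197.4 CPM. Of the latter, 6 control and 4 induced cells with at least 5 UMIs of C1qa plus C1qb stood at 77040.7 and 66633.5 CPM. The remaining 16 and 21 stood at 105092.1 and 92823.6 CPM. Both splits were chosen after the values were seen. Class I was higher in the cells low in Cd207, at 7914 CPM (7623 to 8212) and 9248 CPM (8928 to 9576), than in the Langerhans-type cells, at 5274 CPM (5089 to 5463) and 4933 CPM (4756 to 5114). Krt14, a keratinocyte gene, stood at 1446 CPM in the control and 393.5 CPM in the induced antigen-presenting class, and its part in the small ratios was not tested. Lilr4b (r = 0.973), Cybb (0.972), C1qa (0.970), Cd300a (0.970) and Lyz1 (0.967), all genes of myeloid cells, were most like Cd74 across the 18 points. C1qa helped to set the antigen-presenting class, so its r was in part fixed in advance. Cd74 was far higher in the antigen-presenting points than elsewhere, so genes largely confined to that class rank high.

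**Figure D5:**
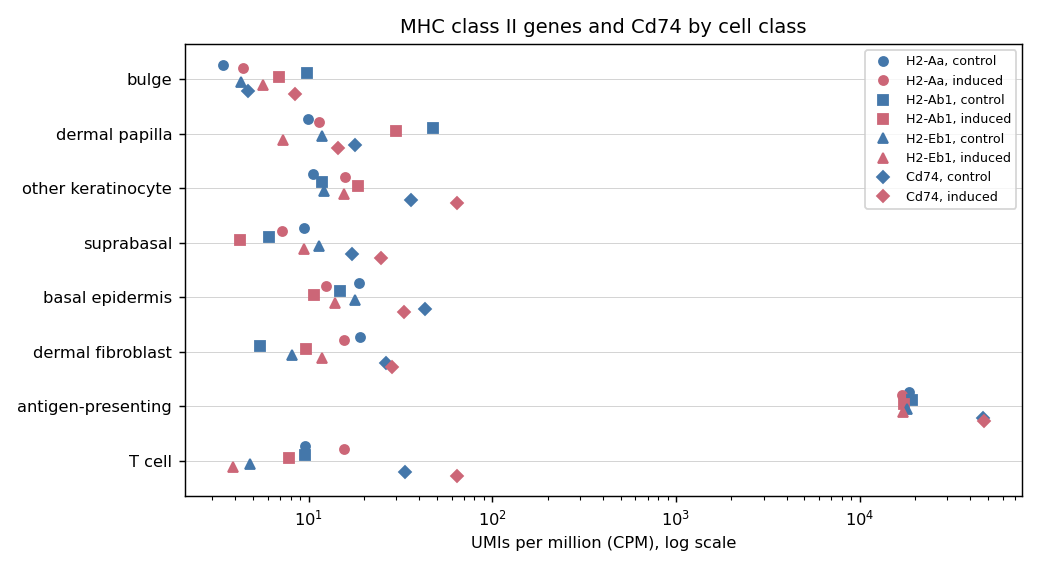
Level of H2-Aa, H2-Ab1, H2-Eb1 and Cd74 in CPM (logarithmic axis) by cell class, control in blue and induced in red. The antigen-presenting row lies between 16965.9 and 47641.9 CPM, and every point of the other rows is at or below 64.4 CPM.

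In the other named classes the summed class II level was between 22.2 and 114.4 CPM, and the part of free RNA was not tested. The cells that passed no rule stood at 492.8 and 388.5 CPM, with 91.8% and 86.3% of those UMIs in 7 and 12 cells. After thinning, a Cd74 UMI was found in 2.76% (1.02 to 5.92) of control and 4.10% (2.13 to 7.05) of induced bulge-like cells, and in 8.21% (6.42 to 10.3) and 10.4% (7.88 to 13.4) of basal cells. The 4 genes were in different proportions between classes. H2-Ab1 gave 18.7% and 17.5% of class II UMIs in antigen-presenting cells but 44.2% and 27.2% of 52 and 81 UMIs in bulge-like cells, and 54.5% and 47.5% of 44 and 61 UMIs in papilla-like cells. In the papilla-like class 43 of 44 control and 58 of 61 induced class II UMIs were in cells with no immune marker UMI.

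Some keratinocytes held many class II UMIs. Among other keratinocytes, 26 control (1.26%) and 40 induced cells (2.24%) had at least 10, and these cells gave 47.6% and 67.2% of the class II UMIs of the class. Their median Krt5 and Krt14 sum was 134.5 and 149 UMIs, against 112 and 90 in the other cells of the class, and they were deeper, at a median of 14561.5 and 17746.5 UMIs against 11902.5 and 12022. Of these cells 20 of 26 and 22 of 40 had no UMI of an antigen-presenting-cell marker, yet those markers stood at 41.4 and 107.7 CPM in them against 4.93 and 4.95 CPM in the rest. Their class I level was also higher, at 7948 and 7569 CPM against 4936 and 4693 CPM. Doublets were not removed, and the part of doublets in these cells was not tested.

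Class II ratios in keratinocytes rested on those few cells. In other keratinocytes Cd74 stood at 35.9 CPM (33.7 to 38.3) and 64.4 CPM (61.2 to 67.7), a log2 ratio of 0.84 (0.72 to 0.96), and all 4 genes were higher in the induced library. In basal epidermis all 4 were lower, with Cd74 at 43.1 and 33.0 CPM, a log2 ratio of -0.39 (-0.60 to -0.18). In basal epidermis 14 control and 6 induced cells with at least 10 class II UMIs gave 55% and 31.9% of the class II UMIs. Without any cell that had an immune marker UMI, the basal Cd74 ratio turned to 0.90, so its direction is not stable.

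The rest of the machinery was followed through 3 lists of genes, which include the members. Over those lists, genes past 2-fold numbered 1 of 33 measured in bulge-like cells, 2 of 38 in basal epidermis, 2 of 35 in suprabasal cells, 3 of 41 in other keratinocytes, 2 of 36 in fibroblasts, 3 of 28 in papilla-like cells, 0 of 41 in antigen-presenting cells and 5 of 26 in T cells. These shares, from 0% to 19.2%, read against the shares of all genes given above, 4% to 17.3%, and are no result about the lists. Of the MHC class I list (20 of 21 genes in the features), 1 of 14 genes with 20 UMIs was past 2-fold higher in basal epidermis and 0 of 10 in bulge-like cells, with list medians of 0.09 and 0.11 against 0.02 and 0.08 over all genes. The gene in basal epidermis was the class Ib gene H2-M2, at 8.82 and 27.3 CPM, a log2 ratio of 1.63 (1.30 to 1.97). H2-M2 was also past 2-fold in other keratinocytes, at 1.01 (0.78 to 1.24). In T cells H2-Q7 was past 2-fold, at 407.6 and 903 CPM, a log2 ratio of 1.14 (0.81 to 1.499). Reads of H2-K1, H2-D1 and the H2-Q and H2-T genes can be shared between near-identical copies, so the split between them is uncertain, and whether both mice carried the same H2 alleles could not be learned from the labels or methods.

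Of the 15 genes of peptide supply and loading, 12 were higher in induced basal epidermis and 3 in induced bulge-like cells. The list medians were 0.25 and -0.10, against 0.02 and 0.08 over all genes. In the induced library 13 of 15 were also higher in suprabasal cells, 13 of 15 in other keratinocytes and 12 of 15 in fibroblasts. The counts were 8 of 15 in antigen-presenting cells, 8 of 14 in T cells and 6 of 12 in papilla-like cells. The share of all genes that were higher was not computed, so these counts are no result about the list. In basal epidermis Psmb10, the third immunoproteasome catalytic subunit, was past 2-fold at 1.08 (0.80 to 1.36), Psmb9 stood at 0.68 (0.54 to 0.83) and Tapbp, which encodes tapasin, at 0.62 (0.49 to 0.75). In bulge-like cells Psmb9 stood at -0.04 (-0.84 to 0.79) and Tapbp at -0.16 (-0.50 to 0.18). Ide, a peptide-degrading protease, was lower in the induced library in suprabasal cells, at -1.29 (-1.56 to -1.02), and in fibroblasts, at -1.30 (-1.99 to -0.65). Of the MHC class II and loading list (14 of 16 genes in the features), no gene was past 2-fold in antigen-presenting cells among 13 measured, with a median of 0.04. Ctsl, a lysosomal protease that processes the invariant chain, was lower in suprabasal cells at -1.11 (-1.30 to -0.91).

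Of the 16 listed regulators of the pathway 14 were measured in basal epidermis and 14 in bulge-like cells, with list medians of -0.0023 and -0.17. Irf1, a transcription factor of the interferon response, stood at 33.6 CPM in control and 82.7 CPM in induced basal epidermis, a log2 ratio of 1.30 (1.12 to 1.48). In bulge-like cells Irf1 stood at 0.42 (0.05 to 0.81). Nlrc5, the transactivator of class I genes, stood at 0.24 (-0.03 to 0.50) in basal epidermis. Of the 9 genes of the co-stimulation and checkpoint list, 2 of 2 measured were past 2-fold higher in basal epidermis and 1 of 2 in T cells. Over all genes, 4% and 17.3% were past 2-fold there in either direction. In other keratinocytes 1 of 4 was past 2-fold higher, in fibroblasts 1 of 4, in suprabasal cells 0 of 1 and in antigen-presenting cells 0 of 5. The list median was -0.36 in antigen-presenting cells. Cd274, which encodes PD-L1, stood at 1.24 (0.81 to 1.67) in basal epidermis and Icos, a T-cell co-stimulator, at 1.67 (1.38 to 1.97) in T cells.

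A list of 26 interferon response genes is given beside the members because Tap1 and Psmb8 are known interferon-responsive genes. In basal epidermis 16 of 22 measured genes were past 2-fold higher with a median of 2.03, and in other keratinocytes 15 of 22 with a median of 1.55, where 4% and 5.12% of all genes were past 2-fold in either direction. In bulge-like cells 1 of 13 was higher and 2 were lower, with a median of 0.05, against 5.68% of all genes. Past 2-fold higher were 7 of 13 in suprabasal cells (median 1.01), 9 of 23 in fibroblasts (0.85) and 4 of 9 in papilla-like cells (0.47). In antigen-presenting cells 5 of 14 were higher and 2 lower (0.64), and in T cells 5 of 11 were higher (0.72). Over all genes 4.68%, 6.71%, 7.89%, 9.68% and 17.3% were past 2-fold in these classes, in that order and in either direction. In basal epidermis Ifi27l2a stood at 2.64 (2.44 to 2.85), Gbp2 at 2.74 (2.39 to 3.13) and Cxcl10 at 4.19 (3.57 to 4.93). The relation of the members to this list was not tested. Genes that neighbour the MHC locus on chromosome 17 had medians between 0.00 and 0.23 in the 8 classes, and 15 dissociation stress genes had medians between -0.39 and 0.29.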

How the data were processed

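The authors ran Cell Ranger (3.0.1 per the file headers) and deposited its unnormalized UMI counts for every gene in every called barcode; the submitters' processing notes name build mm10 without a role. Counts were summed per class and library and divided by the class total (CPM). Log2 ratios used a pseudocount of 0.5 UMIs, and calls needed 20 UMIs in the libraries combined. Classes were set in order by summed marker UMIs: immune (20), antigen-presenting (10), T cell (3), dermal (50), papilla (5), suprabasal (20) and keratinocyte (20), then bulge (4 UMIs of Cd34 and Krt24 with each present) and basal epidermis (follicle markers under 0.1 of Krt5 and Krt14). Calculations used Python 3.11.15, numpy 2.4.6, scipy 1.17.1 and matplotlib 3.10.9, with code tested on simulated data.

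The members, gene lists and tests were chosen with earlier results of these data known. Named genes were the 9 members, up to 30 list genes past 2-fold with an interval off 0 and at least 50 UMIs, and the 5 genes most like H2-K1, Tap1 and Cd74 among genes with at least 200 UMIs. A free RNA check list of 18 genes had medians between -1.88 and 0.09 in the 8 classes. Other named list genes were taken after their values were seen. One list gene is not reported here.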

Additional observations from a re-analysis of the deposited data

Results flagged for a closer look

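For 8 of the 9 genes the induced-over-control ratio pointed one way in 1 cell class and the opposite way in another, with counting intervals off 0 on both sides. None of these differences was tested, since each class had 1 library per group. The share of all genes with such opposite ratios was not computed, so the count is no result about the 9 genes. Psmb8 differed most, with the ratio in basal epidermis 1.37 above that in bulge-like cells on the log2 scale. For H2-K1 the papilla-like ratio lay 1.12 above the bulge-like ratio, and for H2-D1 it lay 0.59 above it. For B2m the T-cell ratio lay 0.90 above the bulge-like ratio. For the class II genes the contrast was between other keratinocytes and basal epidermis, with gaps of 1.17 for H2-Aa, 1.11 for H2-Ab1, 0.71 for H2-Eb1 and 1.23 for Cd74. The class II gaps rested on few cells, and the basal ratios of all 4 genes turned positive when cells with an immune marker UMI were left out. Tap1 had no such contrast.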

How the results depend on the processing

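Of 914 alternative values for 107 results, 723 stayed within the counting interval of the reported value, 165 lay outside it, and 26 turned the direction of a value whose interval was off 0. A further 33 (28 of the 723 and 5 of the 165) turned the sign of a ratio whose own interval included 0. The cause was not tested. The summed class I level below basal epidermis kept its direction in each alternative, with log2 values from -1.93 to -1.68 (control) and -2.25 to -2.02 (induced) in bulge-like cells and from -2.47 to -1.59 and -1.99 to -1.49 in papilla-like cells. In that order, and where a value moved, the bulge-like gap was -1.68 (control) with no cell filter, -1.69 and -2.02 under 5% mitochondrial UMIs, -2.14 (induced) with cuts doubled, -1.83 and -2.17 with totals without mitochondrial and ribosomal genes, -1.71 (control) with median-of-ratios size factors, -1.84 and -2.19 as a mean over cells, -2.17 (induced) without mixed cells (any immune marker UMI, or any dermal one for immune classes), -1.88 and -2.14 without the top 5% of total UMIs and -1.93 and -2.25 without the 5 highest cells. The papilla-like gap was -1.74 (induced) under 5% mitochondrial UMIs, -1.59 and -1.49 with cuts halved, -2.38 and -1.86 with the reduced totals, -2.47 and -1.99 with size factors and -2.38 and -1.80 without the 5 highest cells.

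The summed class I ratio of induced to control was, in bulge-like cells, -0.29 with no cell filter and -0.35 without mixed cells; in basal epidermis, 0.064 under 5% mitochondrial UMIs, 0.10 with cuts halved, 0.12 with reduced totals and 0.11 as a mean over cells; in suprabasal cells, 0.088 with reduced totals, 0.092 as a mean over cells, 0.081 without mixed cells and 0.085 without the 5 highest cells. It was 0.055 in other keratinocytes and 0.28 in T cells under 5% mitochondrial UMIs, 0.069 in fibroblasts as a mean over cells, 0.20 in papilla-like cells with cuts halved, and in antigen-presenting cells 0.19 without mixed cells, -0.0038 without the top 5% and -0.015 without the 5 highest cells. The class II sum in antigen-presenting cells was 0.082 with no cell filter, -0.091 under 5% mitochondrial UMIs, -0.067 with cuts doubled, -0.11 with cuts halved, -0.019 with reduced totals, -0.023 with size factors, -0.091 as a mean over cells, -0.13 without mixed cells, -0.098 without the top 5% and -0.070 without the 5 highest cells. In basal epidermis it turned to 0.17 with cuts halved and 0.52 without mixed cells.

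Single genes with an interval off 0 turned as follows. Under 5% mitochondrial UMIs, other keratinocytes gave 0.084 for H2-K1, 0.062 for H2-D1 and -0.10 for H2-Eb1, and antigen-presenting cells -0.023 for Cd74. With no cell filter H2-D1 was 0.0062 in other keratinocytes, and H2-Aa 0.0063 and H2-Eb1 0.040 in antigen-presenting cells. With cuts halved B2m was -0.085 in papilla-like cells, Cd74 -0.022 in antigen-presenting cells, and H2-Aa 0.028, H2-Eb1 0.10 and Cd74 0.38 in basal epidermis. Without mixed cells basal epidermis gave 0.26 for H2-Aa, 0.40 for H2-Ab1, 0.17 for H2-Eb1 and 0.90 for Cd74, and antigen-presenting cells 0.020 for H2-K1 and -0.019 for Cd74. H2-K1 was -0.0038 in fibroblasts as a mean over cells and Cd74 -0.0039 in antigen-presenting cells without the top 5%.

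Among ratios whose interval included 0, the farthest turns were Tap1 in papilla-like cells (-0.14 under 5% mitochondrial UMIs and -0.99 with cuts halved), Psmb8 in T cells (-0.75 under 5% mitochondrial UMIs), H2-Aa in fibroblasts (0.64) and Cd74 in papilla-like cells (0.82) without the 5 highest cells, and H2-Aa in suprabasal (0.21) and H2-Ab1 in bulge-like cells (0.23) under 5% mitochondrial UMIs.

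Over the 3 antigen presentation lists, a minimum of 100 UMIs gave 1 gene past 2-fold in T cells, 0 in bulge-like cells, fibroblasts and papilla-like cells and 1 in other keratinocytes. With no minimum the counts were 7 in bulge-like cells, 4 in basal epidermis, 5 in suprabasal cells, 8 in other keratinocytes, 7 in fibroblasts, 7 in papilla-like cells, 2 in antigen-presenting cells and 9 in T cells. A fold of 1.5 gave 6, 7, 5 and 7 in the first 4 of these, 9 in papilla-like cells, 6 in antigen-presenting cells and 10 in T cells. The share of all genes past these altered cuts was not computed, so the counts are no result about the lists. Unthinned, an H2-K1 UMI was in 91.5% and 84.9% of bulge-like and 99.9% of control basal cells, and a Cd74 UMI in 7.36% of induced bulge-like and 17.7% and 23.7% of basal cells. No paired analysis was possible because each group has 1 library, and no replicate could be left out.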
